A study of Mus musculus with 3 samples.

Results

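DNA recovered with probes against Pvt1, a long non-coding RNA, was examined. The peaks taken lay inside a gene but far from the annotated start of any gene. A peak was taken when its summit fell within the span of a GENCODE release 21 gene and more than 5000 bp from the transcription start site (TSS) of every annotated gene. Chromosome Y and the Pvt1 gene itself (chr15:62037986-62378096) were left out. The rule took 390 of 962 peaks of the odd capture and 276 of 714 peaks of the even capture, 666 of 1676 peaks in all. Only the gene-level start was used, here and in all distances below, so some peaks lay within 5000 bp of the start of a further transcript. With the start of every transcript as TSS, the rule took 334 odd and 240 even peaks. Where odd and even peaks overlapped by at least 1 bp they were merged, which gave 495 sites: 171 found by both captures, 219 by the odd probes alone and 105 by the even probes alone.

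The cells were C2C12, an established line of mouse myoblasts, the proliferating precursors of muscle fibres, at passages 8 to 14. They were fixed with 1% glutaraldehyde for 15 min, sheared to DNA of 50 to 130 bp and hybridised with 400 pmol of biotinylated probes, 9 in the odd set and 9 in the even set. Both captures were compared by the authors with unprecipitated DNA of the same line, sheared to a mean of 400 bp. There was 1 library per capture; the design text names a different biological sample for each, while both titles are numbered replicate 1, and no value here has a replicate error.

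Chromatin isolation by RNA purification (ChIRP) pulls an RNA out of fixed chromatin with antisense DNA probes and sequences the DNA that comes along. Splitting the probes into odd and even sets is a control for DNA that binds a probe rather than the RNA, since the sets share no target on the RNA. Pvt1 lies beside the Myc oncogene, is best known from cancer, and has been studied in skeletal muscle for its part in atrophy. Introns make up most of the length of mammalian genes and hold enhancers, repeats and other non-coding sequence.

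The sequences of a few sites show what recurs among the peaks and what does not. They are printed from the GRCm38 (mm10) reference, plus strand, over the whole peak, and the capitals mark a recurring sequence of 8 bases near an end of the peak or, at Ythdf3 and Gm10069, the run of bases shared with a capture probe. Unc5d was, beside Stag1, the highest site found by both captures, Igf1r and Runx1 are genes of muscle growth and wasting, Cass4 had equal signal in both, and Gli2 had no recurring sequence.
Unc5d chr8:29172774-29172936: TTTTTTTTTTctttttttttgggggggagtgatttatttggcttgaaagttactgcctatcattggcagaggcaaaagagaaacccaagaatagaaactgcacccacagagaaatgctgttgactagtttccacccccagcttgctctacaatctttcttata
Igf1r chr7:68032991-68033142: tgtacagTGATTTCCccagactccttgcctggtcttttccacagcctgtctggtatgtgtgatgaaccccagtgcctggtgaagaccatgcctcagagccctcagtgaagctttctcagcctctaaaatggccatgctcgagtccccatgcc
Runx1 chr16:92654357-92654503: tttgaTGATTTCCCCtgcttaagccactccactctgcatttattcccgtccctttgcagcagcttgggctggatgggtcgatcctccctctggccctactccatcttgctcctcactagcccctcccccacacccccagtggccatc
Runx1 chr16:92745973-92746121: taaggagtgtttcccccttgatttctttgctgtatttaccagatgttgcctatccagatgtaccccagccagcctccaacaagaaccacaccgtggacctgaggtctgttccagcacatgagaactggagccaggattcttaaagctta
Cass4 chr2:172401102-172401254: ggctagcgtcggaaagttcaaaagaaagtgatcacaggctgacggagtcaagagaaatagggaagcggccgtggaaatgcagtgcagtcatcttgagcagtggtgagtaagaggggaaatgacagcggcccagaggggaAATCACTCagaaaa
Gli2 chr1:119021439-119021593: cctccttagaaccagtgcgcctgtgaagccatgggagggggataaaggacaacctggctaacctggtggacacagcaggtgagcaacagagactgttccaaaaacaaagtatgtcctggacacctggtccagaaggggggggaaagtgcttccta
Ythdf3 chr3:16210385-16210539: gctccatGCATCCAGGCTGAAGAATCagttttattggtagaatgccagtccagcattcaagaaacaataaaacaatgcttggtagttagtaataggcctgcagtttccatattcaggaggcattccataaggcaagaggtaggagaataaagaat
Gm10069 chr6:128465790-128465936: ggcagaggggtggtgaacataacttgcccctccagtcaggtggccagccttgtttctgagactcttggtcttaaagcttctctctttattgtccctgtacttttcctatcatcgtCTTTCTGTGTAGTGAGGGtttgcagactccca

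Many peaks, though not all, carry a recurring sequence near an end, so the next lines give 30 bases across 1 end of each of 10 sites, read from outside the peak inwards, with 15 bases outside and 15 inside. Those read from a right end are on the minus strand. Capitals mark the recurring sequences of 8 bases. The first 5 sites were found by both captures and the other 5 by the even probes alone, which had no part in choosing the sequences.
Clstn1, right end: aaagtgttttcaatttattccGAGTGATTt
Smyd3, left end: gtaggtgcctaaacttatcctgGAGTGATT
Cntnap2, left end: tgtggctattgttcactGAGTGATTTCCCC
Ssbp3, right end: aagctcttgtagccattctGAGTGATTTCC
Popdc3, left end: atttcttaacatctactcTTTTGGGGagtg
Ank2, left end: ttctggaaatctcactttGAGTGATTTTcc
Kalrn, left end: agacagcacaaaaaatGAGTGATTTCCCCt
Hivep2, left end: tggggatgattctgatagggTGATTTCCCC
Ptprn2, left end: tgacaggtcttttctctggGAGTGATTccc
Slc4a7, left end: tattaaagcttgagttcaggGAGTGATTcc

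Peaks were low in both captures, in gene bodies as elsewhere. The deposited pileup, the authors' count of extended tags at the highest point of a peak, had a median of 3 in the odd members and 4 in the even members and reached 15 and 18. Peaks of exactly 3 tags made up 207 of 390 odd members (53.1%) and 124 of 276 even members (44.9%), and each of these was 147 bp long, the length to which the caller extended a tag. Among intergenic peaks over 5000 bp from a TSS 45.6% (odd) and 44.25% (even) had 3 tags, and among peaks within 5000 bp of a TSS 48.0% and 48.5%. A pileup of 8 or more was seen in 22 odd (5.64%) and 25 even members (9.06%). For those intergenic peaks the shares were 6.4% and 4.88%, and for peaks near a TSS 6.21% and 7.35%. The lowest was 2 tags, at an even peak in an intron of Ctnna3, which encodes a catenin of cell junctions. Per the file headers, 14203 of 1310893 odd tags and 12715 of 1352067 even tags remained after duplicate removal, and that depth limits every value below. The headers also give a tag size of 105 for the odd and 54 for the even capture, and the effect of that difference was not tested.

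Of the odd members, 171 of 390 (43.8%, 95% Wilson interval 39.0 to 48.8) overlapped an even peak, against 47.6% of all odd peaks outside chromosome Y and Pvt1. Of the even members, 171 of 276 (62.0%, 56.1 to 67.5) overlapped an odd peak, against 64.1% of all such even peaks. Both shares lay near those of the whole lists. Intergenic peaks over 5000 bp from a TSS overlapped in 52.0% (47.0 to 57.0) of the odd and 67.9% (62.3 to 73.1) of the even list, and peaks within 5000 bp of a TSS in 46.3% and 60.3%. These intervals, here and below, cover counting error only. They overlap between gene-body and intergenic peaks in both lists, which does not show that the shares are equal. The difference was not tested.

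**Figure D1:**
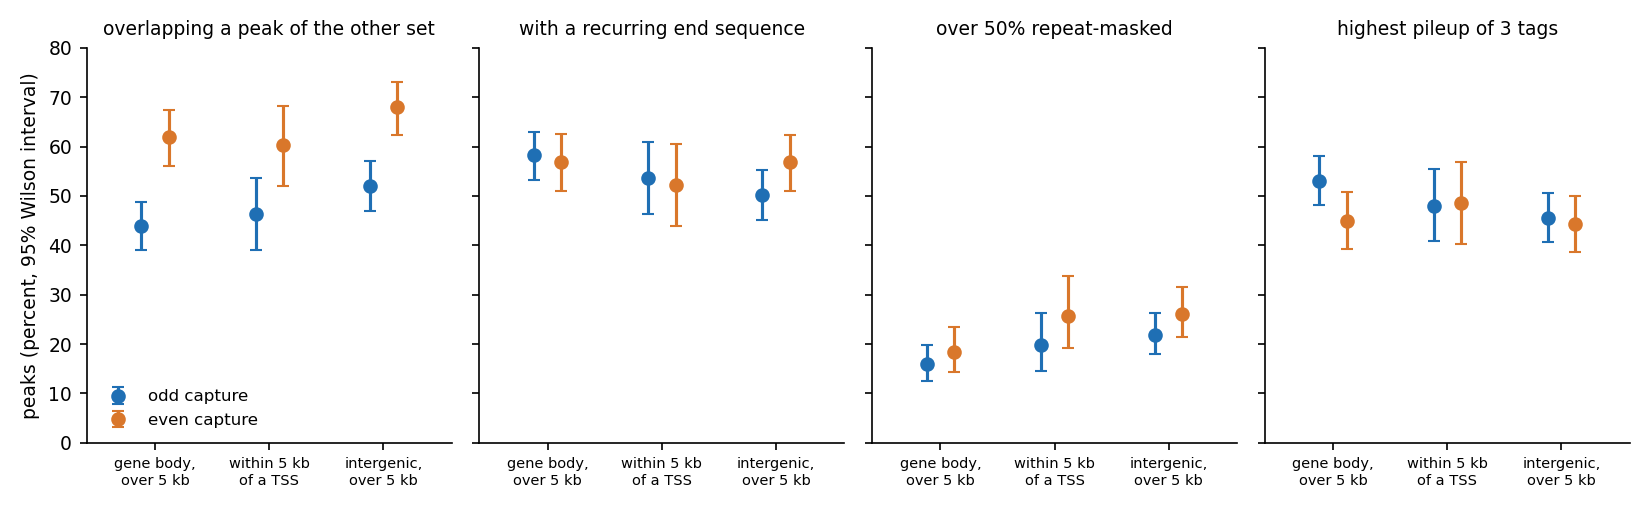
Share of peaks in each list (y axis, percent, with 95% Wilson intervals) for gene-body peaks over 5000 bp from a TSS, peaks within 5000 bp of a TSS and intergenic peaks over 5000 bp from a TSS, shown as points for the odd (blue) and even (orange) captures. Overlap of gene-body peaks with the other list stands at 43.8% and 62.0%, and their share with a recurring end sequence at 58.2% and 56.9%.

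At the 171 sites found by both, the peaks were nearly congruent. The odd and even peaks started at the same base at 76 sites and within 2 bp at 150 (87.7%), and they ended within 2 bp at 156 (91.2%). Lengths were nearly fixed: 93.6% of odd and 90.9% of even members were at most 5 bp longer than the 147 bp extension. The agreement of ends therefore largely repeats that of starts. Pileups were equal at 59 sites and differed by at most 1 tag at 118 (69.0%). The odd peak was higher at 67 sites and the even peak at 45. Shared members had a median of 5 tags (odd) and 4 tags (even), and unshared members a median of 3 in both lists. Most unshared members stood at 3 tags, 162 of 219 in the odd and 69 of 105 in the even list, and the part of the caller's minimum of tags in the difference was not tested.

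**Figure D2:**
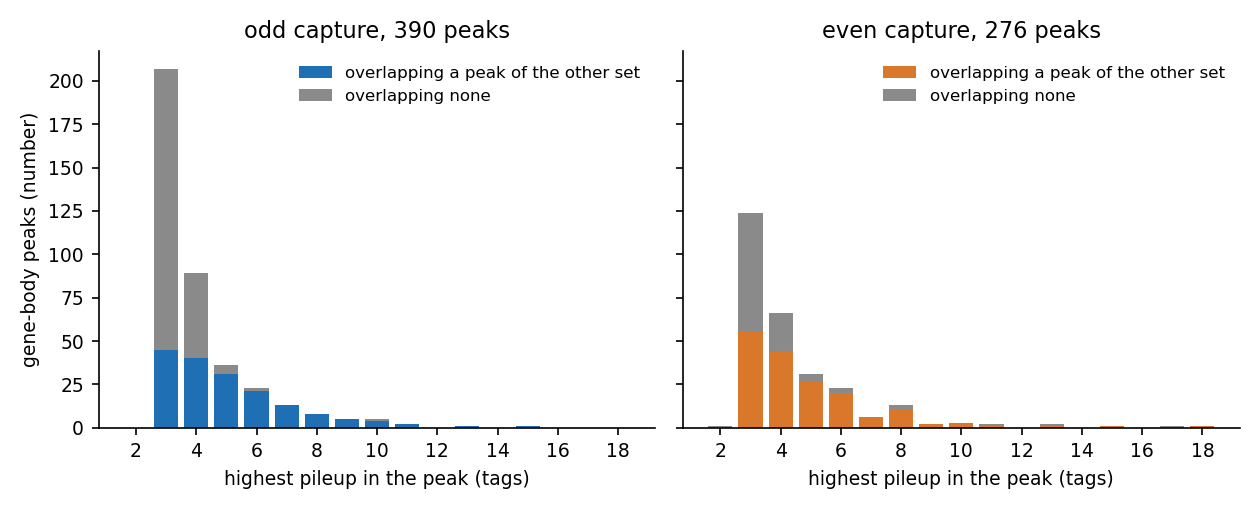
Number of gene-body peaks (y axis) by their highest pileup in tags (x axis), for 390 odd peaks (left) and 276 even peaks (right). Colour marks peaks that overlap a peak of the other set and grey those that overlap none. Grey peaks sit mostly at 3 tags, 162 of 219 in the odd list and 69 of 105 in the even list.

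The highest shared sites lay in introns, as did most members of both lists. Unc5d, which encodes a netrin receptor of axon guidance, had 15 tags with odd and 13 with even probes at a site 46.8 kb from the nearest TSS. Stag1, which encodes a cohesin subunit, had 13 and 15 tags (chr9:100831209-100831373). No other site exceeded 10 tags in both captures. The intronic site in Gli2, a transcription factor of Hedgehog signalling, had 9 and 11 tags, and the site in Cass4, an adhesion scaffold protein, had 9 in both. Igfbp7, a secreted binding protein of insulin-like growth factors, had 11 and 8 tags (chr5:77372375-77372529). The site in Magt1, a magnesium transporter, also had 11 and 8 (chrX:105986616-105986770). Arhgap35, a GTPase-activating protein, had 10 and 8 tags, and Clstn1, a kinesin adaptor, 8 and 10. Smyd3, a lysine methyltransferase, and Mdga2, a synaptic adhesion protein, each had 9 and 8 tags, and the lincRNA gene Gm34004 had 8 in both. Each of these pairs differed by at most 3 tags.

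Fhod3, a formin that organises sarcomeric actin, had 10 tags in both captures at an intronic site 201.2 kb from a TSS, the next after Unc5d and Stag1. Popdc3, a Popeye-domain membrane protein of muscle, had 8 tags in both (chr10:45200383-45200534). Altogether 14 sites had at least 8 tags in both captures, with Gm34004, Popdc3 and Igf1r tied at 8 and 8. All 14 were intronic and 9 had a recurring end sequence. Both counts lay near the shares of members at large. Introns held 94.1% of odd and 95.7% of even members, and 63.7% of shared odd and 64.9% of shared even members had such a sequence. The largest disagreement was in Arhgap24, a GTPase-activating protein, with 4 tags in the odd and 18 in the even capture (chr5:102857269-102857437). The Arhgap24 site is repeat-masked over 100% of its bases in the reference.

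**Figure D3:**
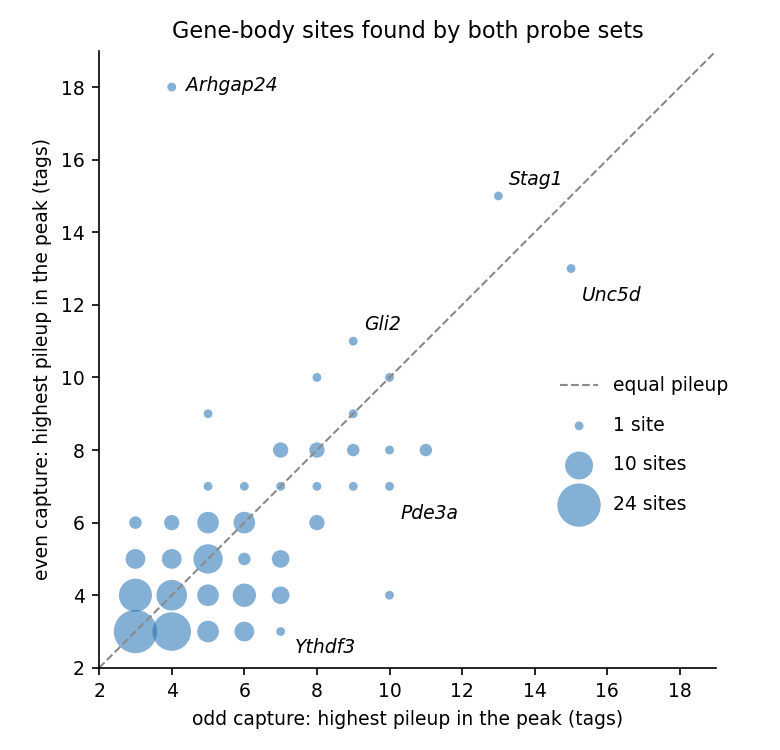
Highest pileup in tags of the odd peak (x axis) and of the even peak (y axis) at the 171 gene-body sites found by both captures. The area of a circle gives the number of sites at that pair of values, the dashed line marks equal pileup, and 118 sites lie within 1 tag of it, while Arhgap24 stands off at 4 and 18.

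Few high sites belonged to 1 capture. Among odd members that overlapped no even peak, only the site in Tmcc3, a membrane protein of the endoplasmic reticulum, reached 8 tags, with 10 (chr10:94490754-94490908). Bach2, a transcriptional repressor of lymphocytes, and Ubash3b followed with 6 tags each. A further Bach2 site and Atl2, a GTPase that fuses membranes, were among 5 such members tied at 5 tags. Among even members that overlapped no odd peak, 6 reached 8 tags. Among them Kank1, an adhesion adaptor, had 13, and the lincRNA gene Gm12766 had 11. Klhl29 had 10 and Acsf2, an acyl-CoA synthetase, 8. None of the 7 unshared members of 8 or more tags, the even peak in Gm12648 included, had a recurring end sequence. Of shared members of 8 or more tags, 14 of 21 odd and 11 of 19 even members had one. At any pileup, 63.7% of shared odd and 64.9% of shared even members had one. For unshared members of any pileup the shares were 53.9% (odd) and 43.8% (even). The sequences were picked on odd members, so these counts are a description only. Of the 6 unshared even members of 8 or more tags, 3 were more than 50% repeat-masked.

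The recurring sequences were picked on odd members alone. All sequences of 8 bases within 15 bases inside or outside either end were counted, taking a sequence and its reverse complement as 1, and the sequence at most members not yet covered was taken in turn until 10 were found. Read inwards from the end, the most frequent was TGATTTCC, at 67 odd members (17.2%) and 53 even members (19.2%), against 0.297% of 6551750 windows of about the length of a peak tiled over the same gene-body sequence. GAGTGATT stood at 53 odd (13.6%) and 43 even members (15.6%), against 0.130% of windows. Most of these even members overlap an odd peak, so their shares in part repeat the choice. Of the 105 even members that overlapped no odd peak, 8 (7.62%) had TGATTTCC and 6 (5.71%) GAGTGATT. Others were ATTTCCCC (41 and 35 members), GATTTCCC (62 and 49), TTTTGGGG (23 and 13), GTGATTTT (17 and 24) and a run of T or A (37 and 27). The remaining 3 were GGGGAGGT (12 and 1), GTGAATTT (11 and 4) and AGTTGATT (9 and 2). Several overlap: TGATTTCC, GATTTCCC and ATTTCCCC all lie within GTGATTTCCCC, the bases held by over 50% of ends with TGATTTCC in each of the lists, and the last 6 bases of GAGTGATT are its first 6. At least 1 of the 10 was found in 227 odd members (58.2%, 53.2 to 63.0) and 157 even members (56.9%, 51.0 to 62.6), against 4.21% of windows. For the odd members, and in part for even members that overlap them, this share describes the choice. The sequences were about as frequent in other peaks: 50.1% (45.1 to 55.2) of odd and 56.8% of even distant intergenic peaks had at least 1, as did 53.7% and 52.2% of peaks near a TSS. In all, 144 odd and 110 even members had neither a recurring sequence nor a probe match.

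The 105 even members that overlapped no odd peak give the share outside the choice. Of these, 46 (43.8%, 34.7 to 53.4) had at least 1 of the 10 sequences, against 4.21% of windows. Without the run of A the number was 35 (33.3%, 25.0 to 42.8), against 1.89% of windows. They include the even peaks of Ank2, a membrane anchor of muscle and heart, and of Ptprn2 and Ptprg, receptor-type tyrosine phosphatases. Even peaks with a recurring sequence overlapped an odd peak in 111 of 157 cases (70.7%, 63.2 to 77.3), and those with neither such a sequence nor a probe match in 52 of 110 (47.3%, 38.2 to 56.5). For odd peaks the shares were 109 of 227 (48.0%) and 53 of 144 (36.8%, 29.4 to 44.9). The sequences were picked on odd members, so even peaks at the same places carry them in part by that choice, and these shares are a description only.

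These sequences kept to 1 place and orientation relative to the peak. Leaving out the run of A, 504 of 519 occurrences (97.1%) lay wholly inside the peak, where an even spread over the window would put 34.8%. Occurrences rose up to the 15-base limit, so the window was widened to 30 bases after the data were seen: 896 of 923 (97.1%) then lay inside, and 814 (88.2%) began 3 to 12 bases from the end base, most often 7 in both captures. Overlapping sequences at 1 end are counted separately here. The counts of occurrences also pool both lists, so the same bases at a site found by both captures can enter from each list. TGATTTCC read inwards in 116 of 120 occurrences and GAGTGATT in 96 of 96. Relative to the host gene, both intervals include 50%: TGATTTCC lay on the strand of the gene at 36 of 67 odd members (53.7%, 41.9 to 65.1) and 28 of 53 even members (52.8%, 39.7 to 65.6). The location of the sequence inside the end of the peak can be seen in the Igf1r, Clstn1 and Kalrn sequences above.

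**Figure D4:**
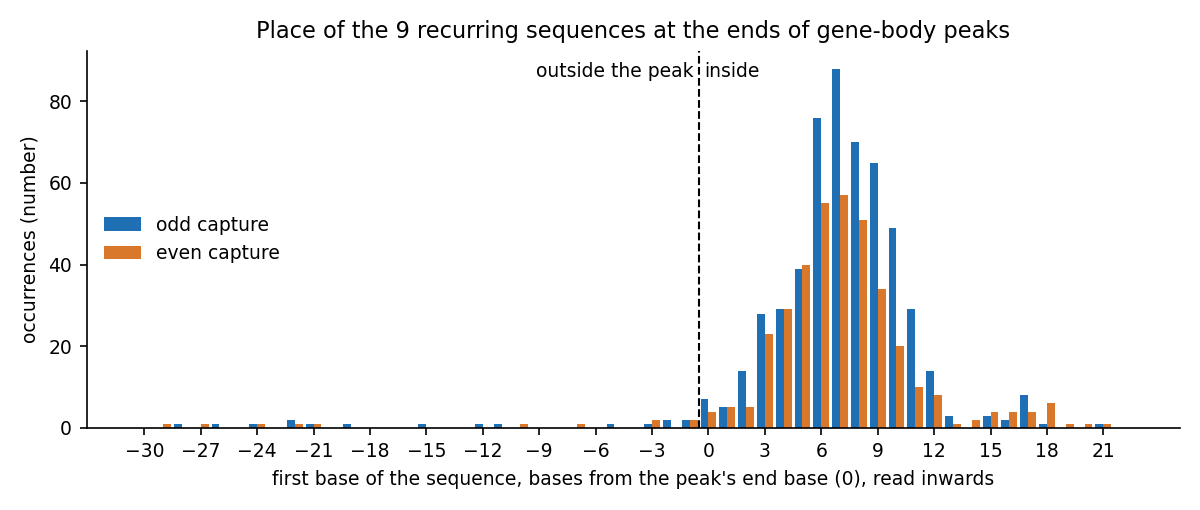
Number of occurrences (y axis) of the 9 recurring sequences other than the run of A by the distance of their first base from the end base of the peak (x axis, bases, read inwards, 0 being the end base), in odd (blue) and even (orange) gene-body peaks. Both captures peak at 7 bases inside, and few occurrences lie outside the peak.

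A smaller group of peaks held a stretch of a capture probe. An exact run of at least 11 bases of a probe of the own set, in the peak and 20 bases on each side, was found in 15 odd members (3.85%, 2.34 to 6.25) and 7 even members (2.54%, 1.23 to 5.14), against 1.04% and 1.01% of windows. Probes of the other set matched 12 odd members (3.08%) and 5 even members (1.81%). Over both sets 28 sites had such a run, and 13 had 12 bases or more. Of these 13, 7 were found by both captures, against 171 of all 495 sites (34.55%), a difference that was not tested. The longest runs are shown on the probes, 5′ to 3′, with the run in capitals; the probes are 20 bases long.
Odd probe at Ythdf3: gGCATCCAGGCTGAAGAATC
Odd probe at Gm10069: gtCCCTCACTACACAGAAAG
Odd probe at Cc2d2a: gtccctCACTACACAGAAAG
Even probe at Creb5: actcggcTCTATTTTAGAGG
Even probe at Magt1: AATGTCTACTTGTtggccaa

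Ythdf3, which encodes a reader of methylated adenosine in RNA, matched 19 bases of an odd probe in an intron and had 7 tags with odd and 3 with even probes. Gm10069, an antisense transcript gene, matched 18 bases of another odd probe and had 3 tags in both captures. Both sites were also found by the even probes, whose longest run there was 9 bases at Ythdf3 and 8 at Gm10069. The part of such runs was not tested. Cc2d2a, a protein of the base of the cilium, matched 14 bases of the odd probe that matches Gm10069, and had 4 tags with odd probes alone (chr5:43710968-43711115). The peak in Creb5, a transcription factor, lay in an untranslated exon and matched 13 bases of an even probe, yet was found by the odd probes alone, with 4 tags. Magt1 matched 13 bases of an even probe, and Cc2d2b 12 bases of an odd probe, with 3 odd tags. Of the 13 sites with 12 bases or more, 12 had the probe reading inwards from the nearer end of the peak. With the whole probe laid on the run, its 5′ end came to lie 2 to 17 bp (median 11) inside or outside that end over the 13 sites. The run reached the 3′ end of the probe at 5 of the 13.

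Within genes the sites were spread widely. Summits lay in introns for 367 odd members (94.1%, 91.3 to 96.0) and 264 even members (95.7%, 92.6 to 97.5). An exon held 23 odd (5.90%, 3.96 to 8.69) and 12 even summits (4.35%, 2.50 to 7.45), and exons make up 7.06% of gene-body sequence over 5000 bp from a TSS. Pde3a, a cyclic nucleotide phosphodiesterase, had the highest exonic site, in coding sequence, with 10 and 7 tags (chr6:141470948-141471102). In non-coding exons, Ttc17 and the antisense gene Gm32401 each had 7 and 5 tags, Gm49417 had 6 and 3, and the lincRNA gene Gm29154 5 and 6. Ube2g1, a ubiquitin-conjugating enzyme, had 6 tags with even probes alone. The host was a protein-coding gene for 333 odd (85.4%) and 233 even members (84.4%) and a lincRNA gene for 37 and 26. Cutting each host into 3 equal lengths, the first, middle and last held 119, 135 and 136 odd members and 76, 103 and 97 even members. The rule left out sequence within 5000 bp of a TSS, the start of the host included, so the 3 lengths need not hold equal amounts of eligible sequence. Those amounts were not counted, and a difference between the lengths was not tested.

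The median member lay 27.9 kb (odd) or 27.2 kb (even) from a TSS. The nearest were in Agbl4, a tubulin-modifying carboxypeptidase, at 5025 bp (odd, 4 tags) and Car8, a carbonic anhydrase-related protein, at 5087 bp (even, 3 tags). The farthest were in Pcdh15, a cadherin of sensory hair cells, at 478281 bp, and in the netrin receptor gene Dcc, at 471125 bp, each with 3 odd tags. Just outside the rule lay gene-body peaks of both captures at chr5:115105210-115105495, with summits 4915 bp (odd, 5 tags) and 4919 bp (even, 3 tags) from a TSS. Host genes were long, with a median of 155.7 kb for odd and 140.3 kb for even members, against 26.7 kb for the 16683 protein-coding genes with sequence over 5000 bp from a TSS. Per Mb of that sequence, protein-coding genes held 0.407 sites where the gene was under 50 kb, 0.566 from 50 to 100 kb, 0.508 from 100 to 250 kb, 0.481 from 250 to 500 kb and 0.483 above.

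Gene-body sequence over 5000 bp from a TSS makes up 37.9% of the gap-free genome outside chromosome Y and Pvt1, and 41.4% (38.3 to 44.6) of odd and 39.5% (35.9 to 43.2) of even peaks there lay in it. Peaks per Mb were 0.402 (odd) and 0.285 (even) there, against 0.326 and 0.249 in distant intergenic sequence and 0.404 and 0.310 near a TSS. Members over 50% repeat-masked numbered 62 odd (15.9%, 12.6 to 19.9) and 51 even (18.5%, 14.3 to 23.5), against 22.6% of windows. Median GC content was 43.5% and 44.2%, against 42.6% in windows. Exact runs of 24 bases in common with another site were found at 27 of 495 sites, leaving out simple repeats. Sites were far apart, with a median gap of 2956 kb between neighbours and 3 pairs under 10 kb.

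By chromosome, most shares followed the amount of gene-body sequence. Chromosome X held 7 odd members (1.79%, 0.872 to 3.66) and 5 even members (1.81%, 0.776 to 4.17), against 4.40% of the sequence. Both intervals lie below that share. Chromosome 18, with Fhod3, Dcc and Apc, held 5.90% (3.96 to 8.69) of odd members and 4.71% (2.77 to 7.89) of even members, against 3.45%. Chromosome 2, with Cass4, held 8.72% and 11.2% (8.03 to 15.5), against 7.68%. The chromosome shares of the unprecipitated DNA were not analysed here.

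**Figure D5:**
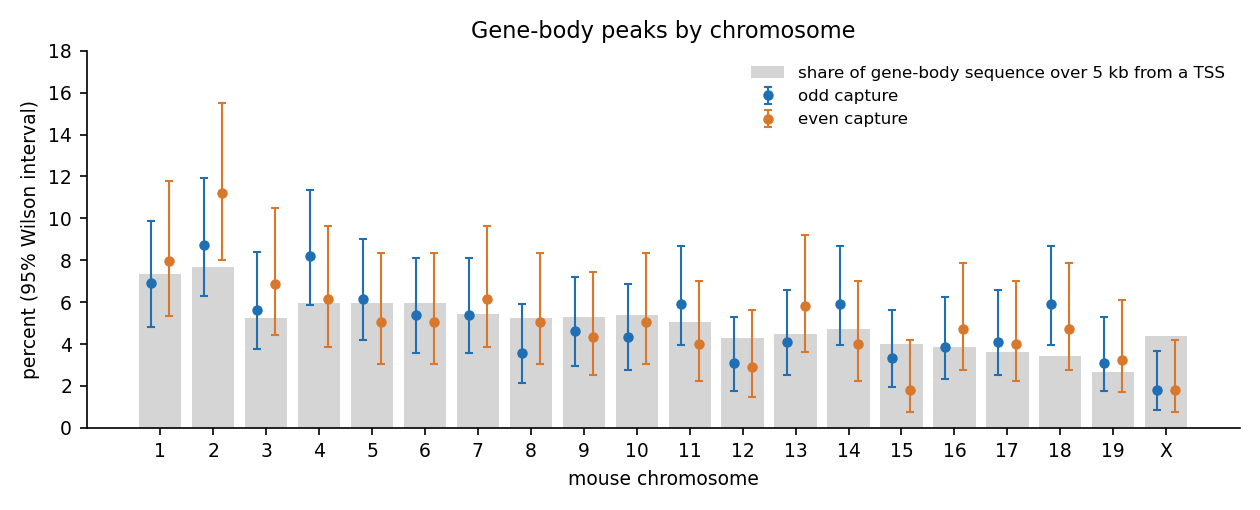
Share of gene-body peaks on each mouse chromosome (y axis, percent, 95% Wilson intervals) in the odd (blue) and even (orange) captures, with grey bars for the chromosome's share of gene-body sequence over 5000 bp from a TSS. On chromosome X both points lie near 1.8%, below the bar at 4.40%.

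In all, 457 genes hosted a site, 393 of them protein-coding, and 36 had 2 or more. Tmcc3 and Auts2, a regulator of transcription in neurons, had 3 sites each, spanning 172.2 kb and 554.6 kb. In both, 1 of the 3 sites was found by both captures. Runx1, a transcription factor of blood formation that is induced in denervated muscle, had 2 sites 91.8 kb apart, with 3 and 5 tags at one and 5 and 5 at the other. Igf1r, a growth factor receptor, had 8 tags in each capture 80.2 kb from a TSS and 4 odd tags at a further site. In Stag1 the further site had 3 odd tags and in Smyd3 4 even tags (chr1:179414711-179414858). Arhgap35 and Klhl29 each had 1 site found by both and 1 by the even probes alone. Genes with 2 or more sites had a median length of 377.2 kb, and in 4 of the 36 (Runx1, Kif26b, Gm37240 and A330093E20Rik) 2 sites were found by both captures.

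Counts in gene lists are set beside all 16683 protein-coding genes with such sequence, of which 315 (1.89%) had an odd member and 222 (1.33%) an even member, with 0.489 sites per Mb. The lists were chosen with earlier results of these data known, so their counts are a description only. In the list of muscle atrophy and FoxO signalling, 3 of 18 genes had an odd and 2 an even member: Runx1, Igf1r and Foxo3, the last a transcription factor of protein breakdown with 3 odd tags. These 5 sites, 2 of them in Runx1 and 2 in Igf1r, gave 2.85 per Mb over 1.75 Mb. Of 24 genes of cohesin and chromatin regulation, 3 had an odd and 1 an even member: Stag1, the deacetylase gene Hdac9 (4 odd tags) and Jarid2, a Polycomb cofactor (3 odd tags), 1.26 sites per Mb. Of 27 axon guidance genes, 5 had an odd and 2 an even member, 0.645 per Mb. Beside Unc5d these were Epha6, an ephrin receptor (4 and 5 tags), Sema6d, a semaphorin (4 odd tags), Nrp1, a semaphorin co-receptor (3 odd tags), and Dcc (3 odd tags at each of 2 sites).

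Synaptic adhesion and channel genes had the most members, 8 of 26 genes in the odd and 4 in the even list, but they are very long: 10 sites in 25.2 Mb gave 0.397 per Mb, below the value of all protein-coding genes. Among them Nrxn3, a presynaptic adhesion protein, had 6 and 4 tags, Cntnap2, of the same wider family, 3 and 4, and Cntnap5a 3 in both. Cntn4, Dlg2 and Grin2a had 3 odd tags each, and Cntn5 had 3 odd tags at 1 site and 4 even tags at another. Of 23 TGF-beta and Wnt genes, Apc (4 odd tags) and Tcf7l2 (3 even tags) had a member (0.874 sites per Mb), and of 17 phosphatase genes Ptprd (3 odd), Ptprn2 (3 even) and Ptprg (3 even), 0.403 per Mb. Of 17 genes of the Myc network and cell cycle, the cyclin gene Ccnd3 had 3 even tags, 1 site in 0.612 Mb, and of 21 genes of myogenic regulation and muscle structure Ank2 alone had a member, with 4 even tags. That muscle list had 0.203 sites per Mb over 4.93 Mb, below the value of all protein-coding genes. None of 21 genes of mitochondrial dynamics, apoptosis and autophagy and none of 11 hepatocyte genes had a member, over 2.24 Mb and 0.257 Mb. With so few sites, no list was tested against the rest.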

How the data were processed

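DNA captured with odd or even Pvt1 probes was sequenced by Ion Torrent and mapped to GRCm38 (mm10) with TMAP, per the labels' design text. For each capture, the authors called peaks against unprecipitated DNA with MACS2 version 2.1, per the submitters' processing notes. The caller extended tags to 147 bp, per the file headers; the q-value cutoff was 0.05 and the effective genome size was 90000000, which is smaller than the mouse genome and so raises the uniform background set for a peak. The deposited lists give the pileup (a signal in tags), the −log10 of p and q values, and the fold enrichment (a ratio to background), all the authors' own values, used here to describe and filter peaks. The p and q columns were read by their place in the table.

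The members and gene lists were chosen with earlier results of these data known. Summits were placed in GENCODE release 21, 55413 genes on the main chromosomes, with the host gene protein-coding first and then longest; 19 peaks on chromosome Y and 16 at Pvt1 were left out. With 1 library per capture no test was made, and counts carry 95% Wilson intervals. The picking of end sequences, probe runs and overlaps was tested on simulated data (Python 3.11.15, pandas 2.3.3, numpy 2.4.6, scipy 1.17.1). Genes were named by rule: the 12 sites with the highest lower pileup of the pair, the 5 highest unshared members per list, the 8 hosts with most sites, the 6 highest exonic sites, the 5 members with the longest run of an own-set probe, the nearest and farthest members, and every list gene with a member; some of these are not reported here. Popdc3, Creb5, Arhgap24, Ctnna3, Gm12648, Ssbp3, Kalrn, Hivep2, Slc4a7, Kif26b, Gm37240 and A330093E20Rik were named after their values were seen. Alternatives changed the distance from a TSS, the genes, the overlap, the pileup and q thresholds, repeats and the sequence settings.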

Additional observations from a re-analysis of the deposited data

How the results depend on the processing

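No paired analysis was possible because each capture is 1 library, the titles give both replicate number 1, and no result comes from a test. Of 63 alternatives set in advance for 13 results, 42 left a count within 1.5 times, a share within its Wilson interval or the median as reported, and 21 did not. With a pileup of at least 4 tags, members numbered 183 (odd) and 151 (even), sites found by both 95, odd overlap rose to 51.9%, and unshared even members with a recurring sequence stood at 53.6% (3.69% of windows with the sequences then picked). Without members with a recurring sequence or a probe match, overlap was 36.8% (odd) and 47.3% (even) and 47 sites were found by both. Counting any overlap with an exon gave 8.72% (odd) and 7.61% (even). Counting a repeat-masked base at the summit gave 23.6% and 28.6%, against 28.9% of the bases of gene-body sequence over 5000 bp from a TSS. For unshared even members, a window of 8 bases gave 15.2% with a recurring sequence (1.54% of windows), the first 3 sequences 25.7% (2.81%) and 7-base sequences 57.1% (12.8%). After the data were seen, a window of 30 bases gave 74.3% (9.70%) and leaving out the run of A 33.3% (1.89%). Probe runs of at least 10 bases gave 7.18% (odd) and 8.33% (even), and of at least 12 bases 2.05% and 0.725%. The median pileup of 4 became 3 without repeat-masked peaks and with protein-coding genes only. The causes were not tested beyond what each setting removes. No member had a pileup above 18 tags, so a site missing from 1 list is not shown to be absent there.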
